A study of Mus musculus with 6 samples.

Results

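A set of 10 nuclear receptor genes that sense or relay bile acids, lipids and foreign compounds were followed in mouse liver 1 day after bile duct ligation. They are Nr0b2 (SHP), Nr1h4 (FXR), Nr1h3 (LXR-alpha), Nr1i2 (PXR), Nr1i3 (CAR), Nr5a2 (LRH-1), Rxra, Ppara, Nr2f2 (COUP-TFII) and Esrra. The 10 genes were chosen by name from the platform annotation, out of 8251 genes that the arrays name by 1 symbol, and they hold 16 of the 12488 probe sets, each a group of short oligonucleotides that together read out 1 transcript. Of these 16 probe sets, 15 passed the filter on low signals, so each of the 10 genes had at least 1 tested probe set. Each gene is described by its brightest probe set, with the others given beside it.

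The samples are livers of 6 male wild-type mice of the strain C57BL/6J, 8 to 10 weeks old, 1 mouse per Affymetrix U74Av2 array. In 3 mice the common bile duct was tied and cut, an operation that stops bile outflow (bile duct ligation, BDL), and 3 mice had a laparotomy with an untied duct (sham). All were taken 1 day after surgery, so the sham mice share the anaesthesia and the opened abdomen. Replicate numbers in the labels are 1, 12 and 3 for BDL and 1, 2 and 3 for sham, and signals below follow that order.

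Nuclear receptors are transcription factors, most of them switched by small lipophilic ligands. FXR is the receptor for bile acids. It induces SHP, a small receptor without a DNA-binding domain, which in turn holds back LRH-1 at the genes of bile acid synthesis, so that bile acids limit their own production. PXR and CAR sense drugs and toxic bile acids and induce detoxifying enzymes, LXR-alpha responds to oxysterols and PPAR-alpha to fatty acids. RXR-alpha is the shared partner with which FXR, PXR, CAR, LXR-alpha and PPAR-alpha bind DNA.

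The arrays held liver signal: 11 of 11 hepatocyte markers on the array were above the floor of 152.7, the level to which lower signals were raised, on all arrays. Alb, which encodes albumin, lay between 125084 and 199675. The 2% trimmed mean was 1501 on each array. Sham replicate 1 stood apart at low signals, with 12.5% of its probe sets at or under the floor against 24.4% to 31.3% elsewhere, whereas the 10 receptors were well above the floor on their brightest probe sets. By limma, 0 of all 9542 tested probe sets passed the adjusted threshold of 0.05, the lowest adjusted p being 0.667. At an unadjusted p under 0.05 there were 552.

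None of the 10 receptors passed the adjusted threshold, where 0% of all tested probe sets did, and 0 had an unadjusted limma p under 0.05, against a background of 5.78% (3.4% higher and 2.39% lower in BDL). Mean differences were positive for 4 receptors and negative for 6. The median log2 difference (BDL minus sham) was -0.09, beside -0.0068 over all 6897 tested genes. Values of the BDL mice lay wholly on one side of the sham mice for 1 of the 10, Nr2f2, where 10.6% of all tested probe sets did so in either direction, 6.32% higher and 4.32% lower in BDL. The share among the receptors is thus near the background. The measurements therefore bound the receptors' differences, and the largest of the 10 by brightest probe set was that of Nr0b2. Dimmer probe sets of Esrra (-1.02) and Nr5a2 (-0.87) had log2 differences larger in size. With 3 mice a group the limits are wide, more so for the variable receptors than for the steady ones. The interval of each receptor's brightest probe set is given below.

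**Figure D1:**
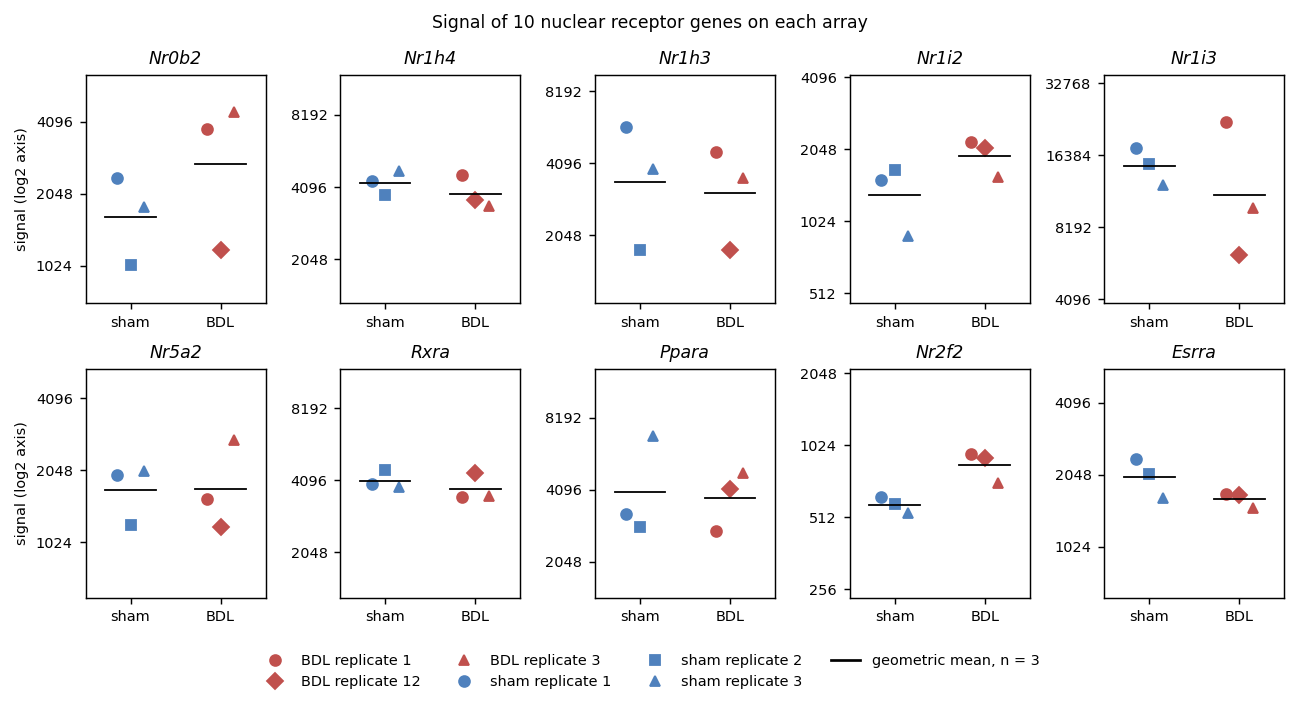
Signal of each receptor gene on each array (brightest probe set, log2 axis, each panel with its own range), sham in blue and BDL in red, with 1 symbol per replicate number and the geometric mean of 3 mice as a bar. Nr2f2 is the panel in which the groups do not overlap, while Nr0b2, Nr1h3 and Nr1i3 spread widely within groups.

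FXR, the bile acid receptor, was measured with 1 probe set of Nr1h4 (chr10:89454234-89533645, GRCm38.p6). It read 4589, 3624 and 3411 in the BDL mice and 4335, 3788 and 4762 in the sham mice. The groups overlapped, with the lowest and the second lowest value in BDL replicates 3 and 12. Means were 3875 ± 628 after BDL and 4295 ± 489 after sham surgery (SD, n = 3). On the log2 scale the groups differed by -0.15 (SE 0.28, 95% interval -0.80 to 0.49; limma adjusted p = 0.937). On the fold scale the interval runs from 0.574 to 1.41. As these are whole livers, fewer cells of a type and less RNA per cell cannot be told apart, here and for every gene below.

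SHP, the corepressor that FXR induces, had the largest mean difference of the 10 by brightest probe set and also the largest spread. Nr0b2 (chr4:133553376-133556686) had signals of 3829, 1191 and 4494 in the BDL mice and 2374, 1030 and 1806 in the sham mice. BDL replicates 1 and 3 were above all 3 sham mice, whereas BDL replicate 12 was below sham replicates 1 and 3. Means were 3171 ± 1747 in BDL and 1737 ± 675 in sham (SD, n = 3), and the geometric means were 1.67-fold apart. The log2 difference was 0.74 (SE 0.54, interval -0.50 to 1.97; limma adjusted p = 0.846). Without BDL replicate 12 it was 1.34 with the groups apart and an unadjusted p of 0.0152 (limma adjusted p = 0.892). It was 0.38 without BDL replicate 3 and 0.40 without sham replicate 2, so the size of the difference depended on which single mouse was left out.

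LRH-1, the factor that drives bile acid synthesis genes and on which SHP acts, is encoded by Nr5a2 (chr1:136842562-136960448). Its brighter probe set read 1550, 1189 and 2745 in the BDL mice and 1963, 1209 and 2038 in the sham mice. BDL replicate 3 was the highest of the 6 arrays and BDL replicate 12 the lowest, so the BDL range enclosed the sham range. BDL minus sham was 0.02 on the log2 scale (SE 0.39, interval -0.87 to 0.92; limma adjusted p = 0.997). It turned to -0.32 without BDL replicate 3 and to -0.22 without sham replicate 2, and was -0.42 when both probe sets were averaged. The second probe set gave 722, 244 and 664 in BDL and 1386, 609 and 847 in sham, a log2 difference of -0.87 (SE 0.49, interval -1.98 to 0.24; limma adjusted p = 0.832). Both probe sets had their lowest signal in BDL replicate 12, but they disagreed on the group difference.

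The promoters of Nr0b2 and Nr5a2 are shown because SHP and LRH-1 form the feedback at the centre of this pathway, and LRH-1 is known to bind the SHP promoter at an extended half-site. The 250 bases before the RefSeq start are printed 5′ to 3′ on the gene's strand, from GRCm38.p6, and capitals mark motifs found by search.
Nr0b2 chr4:133553126-133553375, plus strand: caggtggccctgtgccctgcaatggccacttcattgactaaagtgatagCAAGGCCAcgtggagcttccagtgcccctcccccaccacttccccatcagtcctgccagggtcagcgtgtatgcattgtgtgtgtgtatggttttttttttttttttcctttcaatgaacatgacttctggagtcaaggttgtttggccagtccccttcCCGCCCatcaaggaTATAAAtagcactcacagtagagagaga
Nr5a2 chr1:136960449-136960698, minus strand: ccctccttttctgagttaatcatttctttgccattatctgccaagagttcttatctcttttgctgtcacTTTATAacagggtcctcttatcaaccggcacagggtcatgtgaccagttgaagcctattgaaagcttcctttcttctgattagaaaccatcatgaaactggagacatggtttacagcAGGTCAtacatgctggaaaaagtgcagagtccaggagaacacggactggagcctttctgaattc
The motifs searched on both strands were the half-site AGGTCA, its extended forms CAAGGTCA and CAAGGCCA, the GC box written GGGCGG and the TATA box written TATAAA. Pairs of the half-site were searched in 3 forms, as a direct repeat with 1 free base between the copies, as a direct repeat with 4, and as an inverted repeat with 1. Forms that contain AGGTCA overlap the single half-site. In the Nr0b2 window CAAGGCCA stood at -201 to -194, a GC box at -42 to -37 and a TATA box at -28 to -23. CAAGGCCA was found in 1.99% of 32851 promoters of the same length, TATAAA in 12.4% and GGGCGG in 32.7%. In the printed Nr5a2 window TATAAA stood on the opposite strand at -181 to -176 and AGGTCA at -64 to -59, the latter a motif present in 4607 of the 32851 promoters. RefSeq gives Nr5a2 another promoter (chr1:136953631-136953880, not printed), whose window held none of the motifs searched. Of the 13 windows of the 10 receptors, 3 held AGGTCA (Nr1h4, Nr5a2 and Rxra), 0 held CAAGGTCA and 0 held any of the paired forms, which were in 0.0335%, 0.0152% and 0.00609% of all promoters. These matches describe the letters only.

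Genes that FXR is known to induce were taken from a list of 14, of which 9 were tested. Abcb11, Slc51b, C3 and Insig2 had no probe set named by 1 symbol, and Fgf15 did not pass the filter on low signals. None passed the adjusted threshold and 0 had an unadjusted p under 0.05. Of the 9, 6 were positive and the median log2 difference was 0.03, beside -0.0068 over all genes. That median was 0.29 without BDL replicate 1 and 0.36 with the stricter filter on low signals. The negative ones were Slc51a (-0.36, SE 0.38), Slc27a5 (-0.27, SE 0.33) and Abcc2 (-0.26, SE 0.38), each with overlapping groups. Abcb4, the phospholipid flippase that protects bile ducts, was, like Nr0b2, high in BDL replicates 1 and 3. It read 42124, 9795 and 48232 after BDL and 11624, 17947 and 18635 after sham surgery, so that BDL replicates 1 and 3 were above every sham mouse and BDL replicate 12 was the lowest of all. The log2 difference of Abcb4 was 0.79 (SE 0.58; limma adjusted p = 0.846), and 1.52 without BDL replicate 12. Apoc2, the activator of lipoprotein lipase, was 40626, 42469 and 58067 in BDL and 17074, 37122 and 28805 in sham. Those groups did not overlap, with a log2 difference of 0.82 (SE 0.36; limma adjusted p = 0.832). Sdc1, a heparan sulfate proteoglycan, differed by 0.90 (SE 0.55), and Pltp, the phospholipid transfer protein, by 0.70 (SE 0.63), both with overlapping groups. Sdc1 read 1651, 5149 and 2233 in BDL and 878, 2889 and 1151 in sham. Pltp read 1562, 3189 and 1313 in BDL and 1232, 2714 and 461 in sham. Unlike Abcb4, both were highest within their groups in BDL replicate 12 and sham replicate 2, the mice with the lowest Nr0b2. Pltp was 0.03 without sham replicate 3.

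Genes repressed downstream of FXR and SHP gave the lowest median of the lists. Of 7 listed genes 5 were tested, 0 passed the adjusted threshold, and 2 had an unadjusted p under 0.05, both lower. The median log2 difference was -1.19 and 3 of the 5 had groups apart, all lower in BDL. Of the 5, 1 was positive, Apoa1, described below. Over all tested probe sets 2.39% were lower at that p and 4.32% were apart and lower, but 5 genes are too few to read a share from. Earlier results of these data were known when the list was written, so its direction is a description. Cyp8b1, the sterol 12-alpha-hydroxylase that sets bile acid composition, was 9787, 5407 and 1038 in the BDL mice and 13708, 17221 and 18816 in the sham mice. BDL replicate 3, the mouse with the highest Nr0b2, had the lowest Cyp8b1 and also the lowest Cyp7a1. BDL replicate 1, with nearly as much Nr0b2, had the highest Cyp8b1 of the BDL group. Cyp7a1, the rate-limiting enzyme of bile acid synthesis, was 1842, 395 and 106 in BDL and 4368, 598 and 628 in sham, a log2 difference of -1.29 (SE 0.99; limma adjusted p = 0.849) with overlapping groups. It ran from -0.35 without sham replicate 1 and -0.47 without BDL replicate 3 to -2.26 without BDL replicate 1. For Cyp7a1, BDL replicate 3 was under the floor. The difference was -1.47 with the floor at the 10th percentile and -0.93 with the floor at the 40th percentile. Cyp7b1, the oxysterol 7-alpha-hydroxylase, was even in BDL at 4049, 3840 and 3900 and scattered in sham at 8932, 4194 and 19402. Its log2 difference was -1.19 (SE 0.51; limma adjusted p = 0.832), and -0.64 without sham replicate 3. Slc10a1, the bile acid importer of hepatocytes, differed by -0.63 (SE 0.33; limma adjusted p = 0.832). The list's median was -0.47 without BDL replicate 3. Of 5 tested LRH-1 targets, 1 was lower at an unadjusted p under 0.05, Cyp8b1, and the median was -0.03. This list shares Cyp8b1, Cyp7a1 and Apoa1 with the list of repressed genes. Apoa1, the main HDL apolipoprotein, differed by 0.27 (SE 0.31). Scarb1, the HDL receptor, differed by 0.15 (SE 0.44), a sign that turned without BDL replicate 1 (-0.02), BDL replicate 3 (-0.13) or sham replicate 2 (-0.06).

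**Figure D2:**
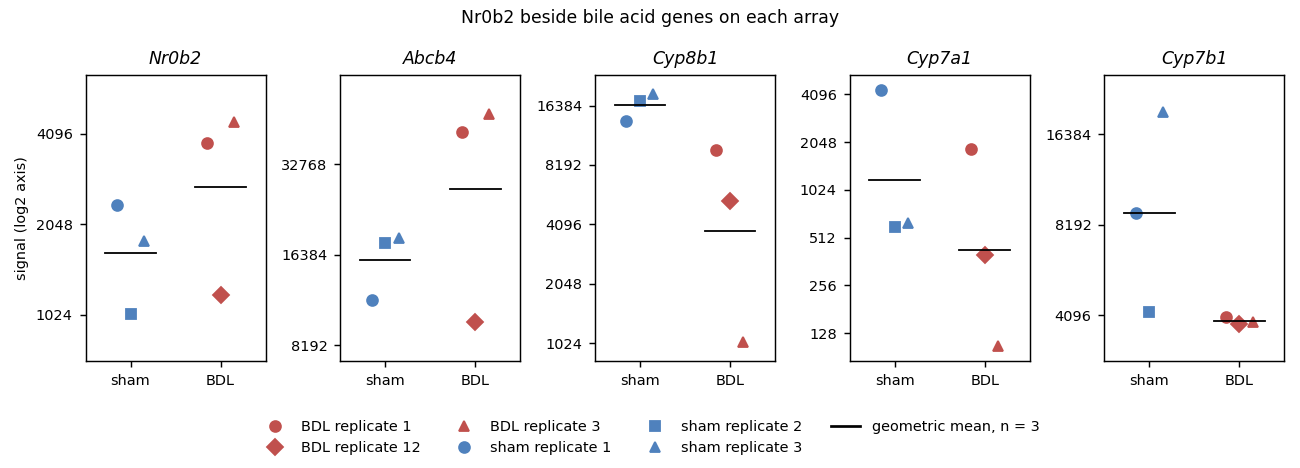
Signals of Nr0b2 and of 4 bile acid genes on each array (log2 axis, each panel with its own range), symbols and bars as in the plot of the 10 receptors. Abcb4 and Nr0b2 are both high in BDL replicates 1 and 3 and lower in BDL replicate 12, while their sham mice fall in a different order, and Cyp8b1 is lower in each BDL mouse than in each sham mouse and lowest in BDL replicate 3.

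PXR, the main sensor of drugs and of lithocholic acid, had a higher mean in BDL. Nr1i2 (chr16:38248349-38294849) had signals of 2207, 2077 and 1567 in the BDL mice and 1527, 1673 and 891 in the sham mice. Only the lowest BDL mouse, replicate 3, fell within the sham range, and sham replicate 3 was the lowest array. Means were 1950 ± 338 in BDL and 1363 ± 416 in sham (SD, n = 3). The log2 difference was 0.55 (SE 0.34, interval -0.22 to 1.33; limma adjusted p = 0.832), a 1.47-fold difference of geometric means, and 0.27 without sham replicate 3.

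CAR, the sensor that moves to the nucleus when hepatocytes meet phenobarbital-like compounds, had 3 probe sets. The brightest for Nr1i3 (chr1:171213934-171218845) read 22495, 6265 and 9859 in the BDL mice and 17538, 15081 and 12290 in the sham mice. BDL replicate 1 was above every sham mouse and BDL replicates 12 and 3 were below all 3, so the BDL values spanned 3.59-fold and the sham values 1.43-fold. BDL minus sham came to -0.41 on the log2 scale (SE 0.46, interval -1.46 to 0.64; limma adjusted p = 0.892). Leaving out BDL replicate 1 gave -0.91 and leaving out BDL replicate 12 gave 0.0077, so its sign rested on that mouse. The other probe sets differed by -0.23 (SE 0.42) and -0.36 (SE 0.43), and all 3 had their lowest signal in BDL replicate 12 (6265, 3740 and 3208). Across the 6 arrays the 3 probe sets correlated with one another at r = 0.70 to 0.93, a description over arrays that they share.

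Detoxification genes known to respond to PXR and CAR numbered 31 on the list and 21 in the test. None passed the adjusted threshold, 1 had an unadjusted p under 0.05, higher in BDL (4.76% of the 21), and the median log2 difference was 0.05. Groups were apart for 3 genes, all higher in BDL (14.3%, beside 6.32% apart and higher over all tested probe sets and 10.6% apart in either direction). Gsta2, a glutathione transferase, was 10711, 6906 and 7211 in BDL and 4322, 4481 and 3828 in sham, a log2 difference of 0.95 (SE 0.30; limma adjusted p = 0.832). Cyp3a11, the classical PXR target in mouse liver, was 91093, 73954 and 80251 in BDL and 51051, 54061 and 61487 in sham. Every BDL mouse was thus above every sham mouse for Cyp3a11, by 0.56 on the log2 scale (SE 0.27; limma adjusted p = 0.832), and by 0.32 after quantile normalization (limma adjusted p = 0.819). Gstm3 differed by 0.77 (SE 0.40) and Cyp3a13 by -0.54 (SE 0.33), with overlapping groups. Gstm3 belongs to a family of close sequences whose probes can be shared. Cyp2b10, the classical CAR target, is outside the naming rule and was added with its values known. It spread from 2786 to 11031 in BDL and from 3191 to 11189 in sham, and its log2 difference was -0.0031 (SE 0.59).

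LXR-alpha, the oxysterol receptor, and PPAR-alpha, the receptor of fatty acid oxidation, had differences near 0 whose sign depended on single arrays. Nr1h3 (chr2:91184061-91202829) read 4584, 1773 and 3569 in the BDL mice and 5802, 1786 and 3889 in the sham mice. BDL replicate 12 and sham replicate 2 were the 2 low arrays, nearly equal to each other, and the other 4 arrays were at 3569 or more. The log2 difference was -0.16 (SE 0.51, interval -1.32 to 1.005; limma adjusted p = 0.963), and it turned to 0.24 without BDL replicate 12 and to 0.22 without sham replicate 1. Ppara (chr15:85734910-85806851) read 2765, 4112 and 4833 in the BDL mice and 3259, 2873 and 6858 in the sham mice. Sham replicate 3 was the highest array and BDL replicate 1 the lowest. The log2 difference of Ppara was -0.07 (SE 0.41, interval -1.002 to 0.85; limma adjusted p = 0.983). It turned to 0.15 without BDL replicate 1 and to 0.31 without sham replicate 3.

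Of 17 listed LXR targets 11 were tested and 10 were positive, with a median log2 difference of 0.23, where 49.2% of all tested genes were positive. None passed the adjusted threshold, and 1 was higher at an unadjusted p under 0.05 (9.09% of the 11, beside 5.70% of all genes). That gene was Lpl, lipoprotein lipase, at 929, 793 and 716 in BDL and 262, 491 and 262 in sham, which differed by 1.32 (SE 0.34; limma adjusted p = 0.687). Fasn, fatty acid synthase, differed by 0.68 (SE 0.40). Srebf1, the sterol-regulated factor that LXR induces, was the negative member at -0.58 (SE 0.42), with signals of 2662, 6232 and 3384 in BDL and 5251, 8682 and 4152 in sham. The list median was 0.07 without BDL replicate 12, 0.09 without sham replicate 1 and 0.45 without BDL replicate 1. Pltp, also on this list, is described above.

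Of 34 listed PPAR-alpha targets 25 were tested, with 8 positive, 0 past the adjusted threshold, 0 at an unadjusted p under 0.05 and a median of -0.17. Plin2, a coat protein of lipid droplets, was 74761, 143702 and 77359 in BDL and 35391, 103529 and 22815 in sham, a log2 difference of 1.10 (SE 0.55; limma adjusted p = 0.832). Slc27a1, a fatty acid transporter, differed by -0.84 (SE 0.42) with 2 arrays at the floor. Me1, malic enzyme, differed by -0.46 (SE 0.27) with groups apart, and Vnn1, a pantetheinase, by -0.57 (SE 0.41).

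RXR-alpha was among the steadiest of the receptors. Its brighter probe set for Rxra (chr2:27676445-27763319) read 3497, 4383 and 3517 in the BDL mice and 3937, 4522 and 3840 in the sham mice. The highest and lowest of the 6 arrays were 1.29-fold apart. Between the groups it differed by -0.11 on the log2 scale (SE 0.28, interval -0.74 to 0.52; limma adjusted p = 0.954). The second probe set ran from 3632 to 3800 in BDL and from 3421 to 3818 in sham, with a log2 difference of 0.05 (SE 0.26, interval -0.56 to 0.65). On the fold scale the 2 intervals were 0.597 to 1.43 and 0.680 to 1.57. RefSeq gives Rxra 2 promoters, and the upstream one is shown beside that of Nr0b2 because these were the steadiest and the most variable of the 10 genes between mice.
Rxra chr2:27676951-27677200, plus strand: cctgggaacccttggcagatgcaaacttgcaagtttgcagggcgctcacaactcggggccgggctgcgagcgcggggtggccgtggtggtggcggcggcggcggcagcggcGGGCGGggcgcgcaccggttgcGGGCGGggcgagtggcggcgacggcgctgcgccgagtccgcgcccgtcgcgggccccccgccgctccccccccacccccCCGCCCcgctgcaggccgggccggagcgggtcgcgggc
In this window 81.2% of the bases are G or C, against 50% in that of Nr0b2 and a median of 52.4% over all promoters. It holds the GC box 3 times and no TATA box, and the capitals mark the GC boxes. The other Rxra window (chr2:27709042-27709291, not printed) is 55.2% G or C, close to that median, and holds no GC box but AGGTCA in 2 places. The arrays do not tell which promoter was used. No test links these letters to the spread.

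COUP-TFII, an orphan receptor best known from venous endothelium and stromal cells, was the receptor whose groups were apart. Nr2f2 (chr7:70351946-70366746) read 946, 907 and 716 in the BDL mice and 624, 583 and 533 in the sham mice. Every BDL mouse was above every sham mouse, and the spread within each group was small. Means were 856 ± 123 in BDL and 580 ± 45.5 in sham (SD, n = 3), with geometric means 1.47-fold apart. The log2 difference was 0.55 (SE 0.28, interval -0.08 to 1.19; unadjusted p = 0.0798, limma adjusted p = 0.832). The groups stayed apart with each array left out, at log2 differences from 0.48 to 0.68, which does not make the difference a call. A second probe set of Nr2f2 was at or under the floor on 5 of 6 arrays (5.10 to 218) and was not tested.

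Markers of the cells in which Nr2f2 is known are given beside it, and whether they follow Nr2f2 across arrays was not tested. Of 17 liver endothelial markers 14 were on the array and 11 of 14 tested were positive, with a median log2 difference of 0.25. The brightest was Eng, an endothelial TGF-beta coreceptor (log2 difference 0.54, SE 0.33). Fcgr2b differed by 1.29 (SE 0.33) with groups apart and 1 sham array under the floor. Cdh5, vascular cadherin, differed by 1.20 (SE 0.53) with overlap. Flt1 (-0.47), Pecam1 (-0.25) and Gpr182 (-0.011) were the negative ones of the 14, each with overlapping groups. The summed signal of the 14 endothelial markers was 10208 to 12438 in BDL and 6459 to 12107 in sham, lowest in sham replicates 3 and 1. Of 14 stellate and stromal markers 10 were tested and 6 were positive, with a median of 0.40. Their summed signal ran from 20929 to 29950 after BDL and from 13937 to 25786 after sham surgery. Among them Acta2, smooth muscle actin, differed by 1.14 (SE 0.38) and Sparc by 0.92 (SE 0.34), both with groups apart. Acta2 had 2 arrays under the floor, sham replicates 2 and 3. The negative ones were Des (-0.89, SE 0.52), the bright Col1a2 (-0.34, SE 0.35), Timp1 (-0.13, SE 0.54) and Lum (-0.092, SE 0.49), each with overlapping groups. None of the markers on the array was at the floor on all 6 arrays. Cholangiocyte markers were mostly dim: of 6 on the array, Krt7 and Epcam were at or under the floor on 5 of 6 arrays, and the sum of the 4 tested was 4654 to 6526 in BDL and 4358 to 4523 in sham. Anxa4 and Cd24a made up much of these sums. Of the 4, 3 were positive, Cftr differed by -0.21, and 0 had groups apart. The Kupffer cell and macrophage markers, 12 tested and 10 positive, summed to 18286 to 41148 in BDL and 8099 to 15256 in sham. Cd14 made up much of these sums in BDL replicates 12 and 3 (29692 and 15816), and without it the other 11 summed to 11456 to 17481 in BDL and 6923 to 12161 in sham, which overlap. Hepatocyte markers summed to 607362 to 822516 in BDL and 478729 to 793751 in sham, and among them Ttr, transthyretin, differed by -1.25 (SE 0.36) with groups apart. The part of these cells in the Nr2f2 difference was not tested.

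ERR-alpha, an orphan receptor that drives mitochondrial genes, had lower means in BDL on both of its probe sets. Esrra (chr19:6910977-6922048) read 1694, 1688 and 1491 in the BDL mice and 2372, 2053 and 1641 in the sham mice, so that sham replicate 3 alone lay within the BDL range. Means were 1624 ± 115 and 2022 ± 366 (SD, n = 3), and the log2 difference was -0.30 (SE 0.29, interval -0.95 to 0.35; limma adjusted p = 0.873). After quantile normalization or scaling to equal medians the Esrra groups no longer overlapped, all lower in BDL. The dimmer probe set read 488, 138 and 267 in BDL and 277, 798 and 747 in sham, with 1 array under the floor, and differed by -1.02 (SE 0.54; limma adjusted p = 0.832). The 2 probe sets gave the same sign but did not follow each other across arrays (r = 0.10 over 6 arrays, a description).

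Of 20 listed ERR-alpha targets 15 were tested, 7 were positive, 0 passed the adjusted threshold and the median was -0.04. One was higher at an unadjusted p under 0.05 (6.67% of the 15), Slc25a4, the ADP/ATP carrier, at 497, 552 and 514 in BDL and 180, 337 and 232 in sham, which differed by 1.11 (SE 0.32; limma adjusted p = 0.827). Pdk4, the kinase that restrains pyruvate oxidation and a target shared with PPAR-alpha, was 1907, 52956 and 2677 in the BDL mice and 942, 15823 and 1110 in the sham mice. BDL replicate 12 and sham replicate 2 were far above the other 4 arrays, and these are the 2 mice with the lowest Nr0b2, Nr1h3 and Nr5a2. The group difference of Pdk4 was 1.34 (SE 1.39; limma adjusted p = 0.883), and it turned to -0.17 without BDL replicate 12. Plin2, Srebf1, Sdc1 and Pltp, described above, also had their 2 highest signals in these mice, 1 of each group. Timm8b, a mitochondrial import chaperone, differed by 0.26 (SE 0.30) and Etfa, an electron transfer flavoprotein subunit, by -0.20 (SE 0.28), both with overlapping groups. What these mice share was not tested.

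**Figure D3:**
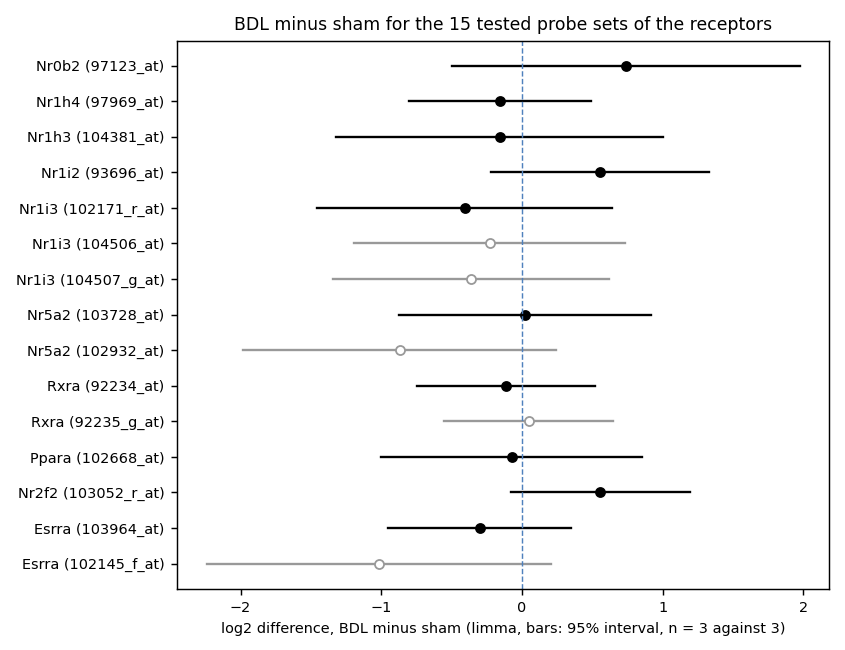
Log2 difference between BDL and sham for the 15 tested probe sets of the 10 receptors, with 95% limma intervals as bars (3 against 3 mice); filled points are the probe set that represents the gene and open points the others. Each of the 15 intervals includes 0, that of Nr2f2 from -0.08 to 1.19.

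The receptors differed widely in how much they varied between mice of one group. The SD of log2 signals within groups, pooled over BDL and sham, was 0.86 for Nr0b2, 0.79 for Nr1h3 and 0.69 for Nr1i3. It was 0.56 for Ppara, 0.53 for Nr5a2 and 0.39 for Nr1i2. For Esrra and Nr1h4 it was 0.20 each, for Nr2f2 0.17 and for Rxra 0.16. Compared with probe sets whose mean log2 signal was within 0.5 of their own, Nr0b2 varied more than 95.9% of them, Nr1h3 more than 94.8% and Nr1i3 more than 90.2%. Nr2f2 varied more than only 2.83%, Rxra more than 8.86%, Esrra more than 12.1% and Nr1h4 more than 16.3%. So FXR and its partner RXR-alpha were even across the mice while SHP was not. These values are of the brightest probe sets. The dimmer Esrra probe set had an SD of 0.85 and varied more than 79.3% of those of like signal. Esrra was thus steady only on its brighter probe set. The second probe set of Nr5a2 had an SD of 0.75 and that of Rxra 0.061, and the others of Nr1i3 had 0.60 and 0.62. Each SD rests on 6 mice and has no interval here.

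**Figure D4:**
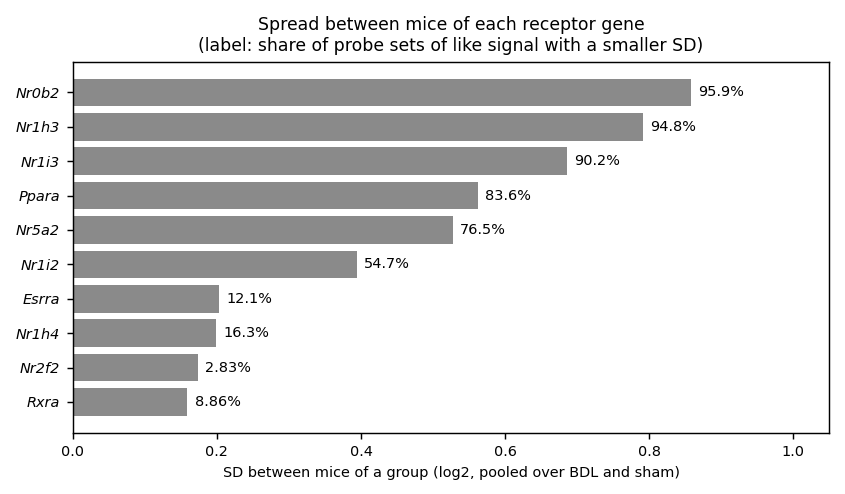
Within-group SD between mice (log2 scale, pooled over 3 BDL and 3 sham mice) of the 10 receptor genes, from the most to the least variable; the label gives the share of probe sets of like signal with a smaller SD. Nr0b2 stands at 0.86 and Rxra at 0.16, each gene by its brightest probe set.

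No pair of receptors had a correlation across mice that passed adjustment. Of 45 pairs among the 10 genes, 2 had a raw exact permutation p under 0.05 over the 6 arrays, about as many as that threshold passes without any relation, and 0 passed after Benjamini-Hochberg adjustment over the 45. Nr0b2 and Rxra ran opposite to each other, with Pearson's r = -0.97 (exact permutation p = 0.0167, adjusted 0.375) and Spearman's rho = -0.89 (exact permutation p = 0.0333, adjusted 0.875), and r = -0.94 without the 2 arrays farthest from the median of Nr0b2. The second Rxra probe set did not show this (r = 0.13), and the range of Rxra was narrow. Nr1i2 and Nr2f2 varied together across arrays, with r = 0.84 (exact permutation p = 0.0153, adjusted 0.375), rho = 0.83 (exact permutation p = 0.0583, adjusted 0.875) and r = 0.80 without the 2 farthest arrays. Both genes had higher means in BDL, so r = 0.84 also holds the group difference. With each group's mean taken out r was 0.76. Nr0b2 correlated with Nr1h3 at r = 0.74 and with Nr5a2 at r = 0.76 (exact permutation p = 0.1 for each, adjusted 0.643; rho = 0.54 with exact permutation p = 0.297 and rho = 0.71 with exact permutation p = 0.136). After removing the 2 arrays farthest from the median of Nr0b2 (BDL replicate 3 and sham replicate 2), r was 0.79 for Nr1h3 and 0.38 for Nr5a2. The relation with Nr5a2 was thus weaker without those arrays. That removal kept BDL replicate 12, 1 of the 2 arrays with low Nr1h3. It therefore cannot show whether the relation with Nr1h3 rests on BDL replicate 12. With 6 arrays, 0.00278 is the smallest two-sided p that the exact permutation test of Spearman's rho can reach without ties. All genes of a mouse share its RNA, its array and its scaling.

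Coregulators, which receptors recruit to switch transcription on or off, showed no call either. Of 20 listed 12 were tested, of which 2 had an unadjusted p under 0.05, both higher in BDL (16.7% of the 12, beside 3.4% of all tested probe sets), and a median log2 difference of 0.08. Prmt1, an arginine methyltransferase coactivator, was 1145, 1946 and 1478 in BDL and 612, 1009 and 801 in sham, with a difference of 0.91 (SE 0.33; limma adjusted p = 0.832) and groups apart. Ncoa2, a coactivator of the p160 family, was 469, 666 and 371 in BDL and 195, 110 and 425 in sham, and differed by 1.07 (SE 0.43; limma adjusted p = 0.832) with 1 array under the floor. Tbl1x, a corepressor exchange factor, differed by 0.24 (SE 0.32) and Med1, a Mediator subunit that binds receptors, by -0.24 (SE 0.33), with overlapping groups.

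The other members of the nuclear receptor family gave a similar picture. Of 39 listed 19 were tested, 7 positive and 12 negative, with 0 past the adjusted threshold, 0 at an unadjusted p under 0.05 and a median of -0.12. Nr1d1 (REV-ERB-alpha), a repressor of the circadian clock, was 1967, 1871 and 1874 in BDL and 2957, 2618 and 2827 in sham. Its groups were apart and even within themselves, and the log2 difference was -0.56 (SE 0.27; limma adjusted p = 0.832), between -0.60 and -0.52 with each array left out. Hnf4a, the hepatocyte master regulator and named after its values were seen, ran from 6125 to 7758 in BDL and from 6587 to 8528 in sham, with a log2 difference of -0.12 (SE 0.28). Esr1, the estrogen receptor, differed by 0.72 (SE 0.47) and the probe set named for Nr5a1 by -0.58 (SE 0.32). Nr4a2 (NURR1), an immediate-early orphan receptor, differed by -0.48 (SE 0.33), and the groups of all 3 overlapped.

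**Figure D5:**
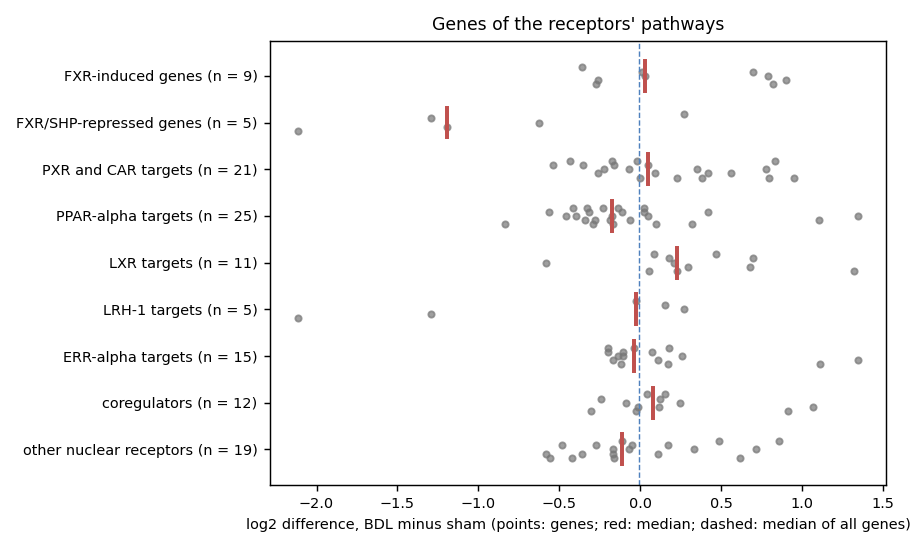
Log2 difference between BDL and sham of each tested gene in 9 pathway lists (points), with the list's median in red and the median of all 6897 genes as a dashed line. The median of the genes repressed by FXR and SHP lies at -1.19, and those of the other 8 lists between -0.17 and 0.23.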

How the data were processed

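Liver RNA of 6 mice was measured on 1-colour arrays. The deposited values are linear signal intensities per probe set that the authors had already scaled: the 2% trimmed mean was 1501 on each array. Per the series' design text the authors used the GeneChip expression software (3.1) and MicroArray Suite (4.0) of Affymetrix, with settings not stated there. Intensities under 152.7 (the floor, at percentile 25 of the whole table) were replaced by that value before taking log2. Of 12488 probe sets, 66 controls were left out, and 9542 with at least 3 of 6 arrays above the floor were tested with limma 3.58.1 in R 4.3.3, BDL against sham (residual df 4), with Benjamini-Hochberg adjustment over the 9542 and a threshold of 0.05. The script was tested on simulated data.

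Of the probe sets, 10833 carry 1 gene symbol in the platform annotation, 396 several and 1193 none. A gene is represented by its probe set of highest mean log2 signal. The members and lists were chosen with earlier results of these data known. The genes named are the 10 receptors, up to 4 tested genes of each pathway list with the smallest unadjusted p, and, of each marker list, up to 3 of the brightest and 2 with the smallest p, not all of which are printed. Exceptions are marked in the text or are named as the negative ones of a list. Correlations used exact permutation of 6 arrays. Promoters and gene positions are from RefSeq on GRCm38.p6, which names 13 promoters for the 10 genes. Alternatives covered the scaling, floor, filter, variance model, replicate block, choice of probe set and each array left out. The labels do not say that the mice were processed independently after surgery, and 3 against 3 arrays limits the precision.

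Exocrine pancreas markers, a check for tissue carried over at dissection, summed to 4748 to 7564 in BDL and 5053 to 13929 in sham over 5 tested genes, with a median log2 difference of -0.46.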

Additional observations from a re-analysis of the deposited data

How the results depend on the processing

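No receptor passed an adjusted p of 0.05 by limma in any of the 18 alternatives, and no pathway gene did in the 17 run on them (averaging probe sets was run for the receptors only). The number of receptors with an unadjusted p under 0.05 was 1 without the filter (Nr2f2) and 1 with array weights (Nr0b2), and 0 to 1 with each array left out (Nr1i3 without BDL replicate 1, Nr0b2 without BDL replicate 12). Groups apart numbered 2 after quantile normalization and with equal medians, and 1 to 3 with each array left out. The receptors' median log2 difference was 0.25 with array weights and -0.23 to 0.12 with each array left out. Over all probe sets, 3 passed the adjusted threshold without the filter (Anxa3, Myc and Ate1). At an unadjusted p under 0.05 there were 362 with the stricter filter, which tests fewer probe sets, 1023 with array weights and 308 to 1176 with each array left out. Pathway genes at that p numbered 16 with array weights and 6 to 12 with each array left out, against 7. The labels share only numbers 1 and 3, whose deviations correlated at 0.21 and 0.25, too few pairs to treat the mice as paired. Whether the BDL mouse labelled 12 stands for 2 is not stated; its deviations correlated with those of sham replicate 2 at 0.29. With the replicate number as a block, 890 probe sets and 12 pathway genes had an unadjusted p under 0.05, 0 passed the adjusted threshold, and Nr0b2 differed by 0.80 and Nr2f2 by 0.54. With 12 taken as 2, a block chosen after seeing the data, 860 probe sets and 12 pathway genes had such a p, 0 passed the adjusted threshold, and the lowest adjusted p of a receptor was 0.552 (Nr2f2). Array weights turned Nr1h3 to 0.45, Ppara to 0.15, Pltp to -0.021, Pdk4 to -0.54 and Med1 to 0.041. Nr5a2 turned to -0.0011 after quantile normalization and to -0.42 averaged over probe sets. With single arrays left out the range crossed 0 for Nr5a2 (-0.32 to 0.29), Nr1h3 (-0.63 to 0.24), Ppara (-0.31 to 0.31), Nr1i3 (-0.91 to 0.0077), Pdk4 (-0.17 to 2.66) and Scarb1 (-0.13 to 0.60). The cause of these shifts was not tested. List medians that moved beyond the spread between arrays were other nuclear receptors, 0.11 at the higher floor, FXR-induced genes, 0.36 with the stricter filter and 0.29 without BDL replicate 1, and FXR and SHP-repressed genes, -0.47 without BDL replicate 3.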
